A study of Mus musculus with 8 samples.

Results

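The genes described here are the Myc family and the partners of Max: Myc, Mycn, Max, Mxd3, Mxd4, Mnt, Mga and Mxi1. They were taken by gene symbol from a table of mRNA-seq signals in mouse embryonic stem (mES) cells, and all 8 were among its 13558 transcripts. The study compared 4 libraries of mES cells lacking Trim71, an RNA-binding ubiquitin ligase (KO, genotype Trim-/-), with 4 libraries of mES cells carrying the conditional allele (WT, genotype Trimfl/fl). All cells were male C57BL/6 cells grown in serum and LIF, and per the study's methods both groups carried a Rosa26-CreERT2 allele, which removes Trim71 exon 4 once activated. Per the labels, deletion was induced with 500 nM 4-hydroxytamoxifen for 2 days and followed by at least 7 days of culture, and sorting for SSEA-1, a surface antigen of undifferentiated cells, preceded lysis. The methods name DMSO as the vehicle control, so exposure to 4-hydroxytamoxifen, activation of Cre and loss of Trim71 cannot be told apart in these groups. The labels name 2 clones, E3 with 3 KO and 2 WT libraries and clone 1 with 1 KO and 2 WT libraries, and a day for each library. Days 3, 4 and 5 held 1 KO and 1 WT library each, from the same clone. Nothing in the labels says whether libraries of a group came from separately deleted cultures, so p-values measure the spread between these libraries.

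Myc and Mycn are basic helix-loop-helix leucine zipper (bHLHZ) transcription factors that bind DNA as heterodimers with Max, mostly at the E-box CACGTG, and activate genes of ribosome production, metabolism and cell division. Mxd3, Mxd4, Mxi1 and Mnt compete for Max and repress the same kind of sites by bringing in Sin3 and histone deacetylases. Mga joins Max within the Polycomb complex PRC1.6, which represses meiotic and germ cell genes in ES cells. Myc and Mycn support self-renewal of ES cells and can stand in for each other there.

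Whole reads recovered from the deposited values, which are normalized read counts, ranged from 6388394 reads in WT replicate 2 to 23968024 in WT replicate 3. Trim71 itself was lower in every KO than in every WT library, at 247 to 793 against 1988 to 2782 normalized counts; exons outside the deletion can still be read. All 10 ES cell markers listed were present, with summed values of 73968 to 102456 in KO and 68106 to 90061 in WT. Of 8 neural markers 7 were present, and their sum was 1277 to 1477 in KO, below the 1512 to 2096 of all WT libraries. The 6 endoderm markers present summed to 214 to 508 in KO and 44.0 to 318 in WT, with Afp and Ttr absent from the table. Mesoderm markers (5 of 7 present) gave 187 to 243 and 140 to 223, and fibroblast markers (5 of 10, with Col3a1, Dcn, Lum, Postn and Twist2 absent) gave 121 to 225 and 111 to 189. The part of these cell types in the values below was not tested, and in bulk libraries fewer cells of a type and less RNA per cell cannot be told apart.

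Since the E-box is the sequence the members bind, it was looked for in the RefSeq promoters of the members themselves, from 250 bases before to 50 after each annotated start (GRCm38.p6, the assembly called mm10). CACGTG reads the same on both strands, so each match counts once. Promoters were given for 7 of the 8 members, all but Myc, and 3 of the 7 (42.9%) held the motif, against 8.09% of 27025 genes. The matches lay in Max, with its first base 3 bases before the start, in Mnt at 123 bases and in Mxd4 at 219 bases before the start. The 3 sites are given in the direction of transcription with the E-box in capitals, at chr12:76962234-76962263 on the minus strand (Max), chr11:74830789-74830818 on the plus strand (Mnt) and chr5:34187912-34187941 on the minus strand (Mxd4).
Max: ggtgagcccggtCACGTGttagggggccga
Mnt: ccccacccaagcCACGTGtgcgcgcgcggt
Mxd4: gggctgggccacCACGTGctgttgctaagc
The flanking bases differed between the 3 sites, and the promoters of Mycn, Mga, Mxd3 and Mxi1 did not hold these 6 letters within the window. A match describes the sequence and does not show that the site was bound.

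The comparison of KO with WT asked whether these regulators differed in cells without Trim71. No member passed an unadjusted p of 0.05 in the limma fit with genotype and clone, against 9.09% of all transcripts (4.62% higher and 4.46% lower in KO). None passed the fold change criterion either (p under 0.05 and at least 1.5-fold, 4.25% of all transcripts), and in no member were the KO and WT libraries fully apart (10.1% of all transcripts). The fitted log2 fold change was above 0 in 5 members and below 0 in 3, and its median was 0.06, beside -0.00036 over all transcripts. Adjusted p-values (limma, Benjamini-Hochberg over all transcripts) ran from 0.622 to 0.978, and no transcript in the table fell under 0.05. Myc and Mga had the 2 largest differences, in opposite directions.

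**Figure D1:**
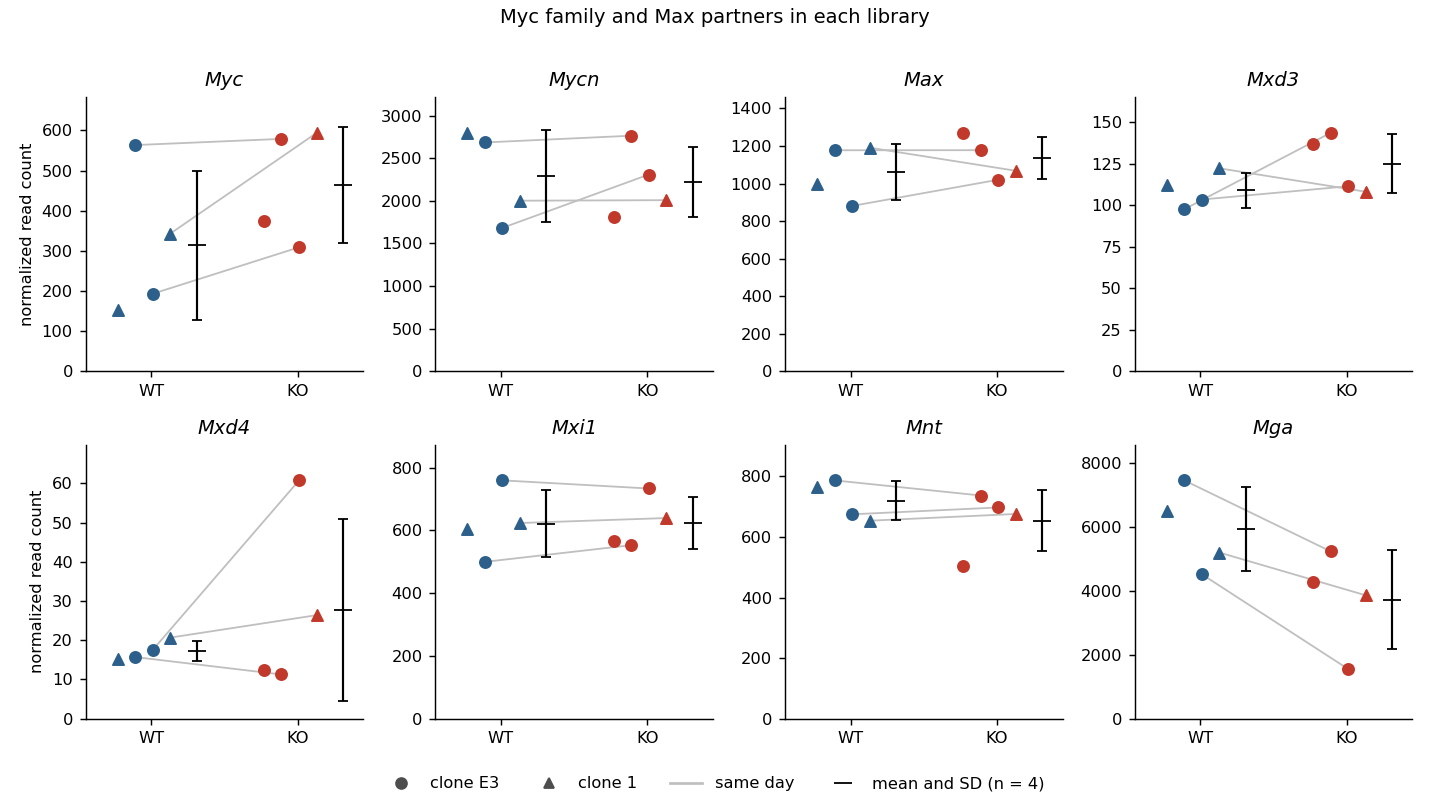
Deposited normalized read counts (y axis, from 0) of the 8 members in the 4 WT (blue) and 4 KO (red) libraries, with circles for clone E3, triangles for clone 1, grey lines joining libraries of the same day and black bars for mean and SD (n = 4). The KO and WT points overlapped in every panel, KO replicate 3 was far below the other libraries for Mga (1553) and far above them for Mxd4 (60.8), and all 3 day lines of Myc rise while all 3 of Mga fall.

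Myc, at chr15:61985391-61990374 on the plus strand, was higher on average in KO but varied widely within both groups. Its normalized counts in replicates 1 to 4 were 374, 579, 309 and 594 for KO and 154, 563, 193 and 343 for WT. WT replicate 2 lay among the highest KO libraries, and the groups overlapped. KO had a mean of 464 ± 144 and WT of 313 ± 186 (SD, n = 4 each). The log2 fold change was 0.68 ± 0.46 (SE), and its 95% interval ran from -0.41 to 1.77 (limma, adjusted p = 0.675). Single libraries moved this value widely, to 0.30 without KO replicate 4, 0.39 without WT replicate 3 and 0.44 without WT replicate 1. Without WT replicate 2 the log2 fold change was 1.21 and passed the fold change criterion (limma, adjusted p = 0.470), as did 5.49% of all transcripts in that fit, while 8.93% passed an unadjusted p of 0.05. Clone E3 alone, which also lacks KO replicate 4, gave 0.30.

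Within the days, Myc was higher in KO by 0.04 on day 3, 0.68 on day 4 and 0.79 on day 5 on the log2 scale. A fit with day as a block over these 6 libraries gave 0.50 ± 0.19 (SE), just short of an unadjusted p of 0.05 (limma, adjusted p = 0.261). The reads recovered behind Myc were 275 to 598 in KO and 248 to 313 in WT, before any scaling for the unlike depths of the libraries. Scaled for depth, with the clone correction undone, they came to 254 to 648 in KO and 139 to 509 in WT. With limma's voom weights on those reads the log2 fold change was 0.95 without the block (adjusted p = 0.522) and 0.54 with it (adjusted p = 0.176). Both passed an unadjusted p of 0.05, as did 9.52% and 23.4% of all transcripts, and the first also passed the fold change criterion, as did 4.33% of all transcripts.

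Mycn, at chr12:12936093-12941914 on the minus strand, was the more abundant of the 2 activators in every library. It held 1813, 2765, 2309 and 2008 normalized counts in KO and 2799, 2686, 1683 and 2002 in WT. Both groups spanned nearly the same range, and the means of 2224 ± 415 and 2292 ± 538 (SD, n = 4) differed by far less than that spread. The log2 fold change was -0.03, with a 95% interval from -0.56 to 0.51 (limma, adjusted p = 0.974), so differences of up to about that size in either direction could not be seen. The same-day differences were 0.04, 0.46 and 0.00 on the log2 scale.

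Max, the shared dimer partner at chr12:76937269-76962201 on the minus strand, had the smallest SD relative to its mean of the members in KO. Its values were 1269.9, 1178, 1020.4 and 1068 in KO and 999, 1177, 881 and 1191 in WT. The groups overlapped, with a log2 fold change of 0.10 and a 95% interval from -0.25 to 0.46 (limma, adjusted p = 0.835). On days 3 to 5 KO differed from WT by 0.00055, 0.21 and -0.16 on the log2 scale.

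Among the partners that repress with Max, Mxd3 (chr13:55325168-55329823, minus strand) had values of 137, 144, 111 and 108 in KO and 112, 97.5, 103 and 122 in WT. KO replicates 1 and 2 stood above all WT libraries and the other KO libraries lay within the WT range. The means were 125 ± 17.8 and 109 ± 10.8 (SD, n = 4), for a log2 fold change of 0.19 (95% interval -0.16 to 0.55, limma, adjusted p = 0.701). Mxd3 shares 105 exon bases with Prelid1 on the other strand, and the library kit did not keep strand, so part of its reads cannot be assigned with certainty.

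Mxd4 (chr5:34173883-34187720, minus strand) was close to the lower limit of the table. It had 12.3, 11.3, 60.8 and 26.4 normalized counts in KO and 15.2, 15.7, 17.5 and 20.7 in WT, which rest on 8 to 64 recovered reads per library. KO replicates 3 and 4 were above, and KO replicates 1 and 2 below, every WT library. The spread was 23.1 in KO against 2.49 in WT (SD, n = 4), and the log2 fold change of 0.39 had an interval of -0.85 to 1.62 (limma, adjusted p = 0.822). Without KO replicate 3 it was -0.06, on untransformed values 0.68 and with voom in the day block 1.04, none of them past an unadjusted p of 0.05. Mxd4 overlaps an antisense gene, Gm42846, by 514 exon bases.

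Mxi1 (chr19:53310518-53375810, plus strand) had values of 567, 553, 734 and 639 in KO and 603, 499.8, 759.5 and 624 in WT. In both groups the day 4 library was the highest. Its log2 fold change of 0.02 had an interval of -0.39 to 0.42 (limma, adjusted p = 0.978). Mxi1 shares 194 exon bases with Gm10197 on the other strand.

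Mnt (chr11:74830920-74845725, plus strand), a repressor present in most dividing cells, had values of 506, 737, 697 and 676 in KO and 764, 787, 675 and 654 in WT. KO replicate 1 was below every other library and the rest overlapped. The means were 654 ± 102 and 719.8 ± 65.5 (SD, n = 4), and the log2 fold change of -0.15 had an interval of -0.52 to 0.23 (limma, adjusted p = 0.782). On the same day KO and WT differed by -0.09, 0.05 and 0.05 on the log2 scale.

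Mga, which encodes a very large protein with a T-box and a bHLHZ domain at chr2:119897228-119969581 on the plus strand, was lower on average in KO. Its values were 4265, 5236, 1553 and 3861 in KO and 6514, 7458, 4519 and 5198 in WT. KO replicates 1, 3 and 4 were below all WT libraries, and KO replicate 2 was above the 2 lowest of them. The means were 3729 ± 1561 in KO and 5922 ± 1317 in WT (SD, n = 4). The log2 fold change was -0.75 ± 0.41 (SE), with an interval of -1.70 to 0.21 (limma, adjusted p = 0.622).

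With the day as a block the call for Mga changed. KO was below WT by 0.51, 1.54 and 0.43 on the log2 scale on days 3, 4 and 5, and the blocked fit gave -0.83 ± 0.26 (SE), which passed an unadjusted p of 0.05 and the fold change criterion (limma, adjusted p = 0.244). In that fit 19.2% of all transcripts passed that p and 7.49% the criterion, so 1 of 8 members past both is near the background. With voom weights in the block the value was -0.995, again past the criterion (adjusted p = 0.178), as were 7.72% of all transcripts. With the block and the clone correction undone it was -1.02 (limma, adjusted p = 0.279) and missed an unadjusted p of 0.05. Day 4, the pair with KO replicate 3, had the widest gap. Without KO replicate 3 the fit with clone gave -0.41 (limma, adjusted p = 0.538).

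The Mga transcript is among the longest measured, with a median annotated length of 13617.5 bases, and long transcripts as a group were lower in KO. The 230 transcripts of 10000 bases or more had a median log2 fold change of -0.28, with 83.9% of them lower in KO, whereas the 3949 transcripts under 2000 bases had a median of 0.10. KO replicate 3, where Mga was 1.52 log2 units below its mean over the 8 libraries, was also the library with the lowest median of long transcripts (-0.36). After a smooth trend over transcript length and GC content had been subtracted from each library, a step added after the data had been seen, the log2 fold change of Mga was -0.31 (limma, adjusted p = 0.650). With the day block and the trend removed it was -0.33 (adjusted p = 0.281), which passed an unadjusted p of 0.05, as did 16.0% of all transcripts, but missed the fold change criterion, which 5.02% passed. In KO replicate 3 Mga lay far below the median of long transcripts, and the cause of either pattern was not tested.

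**Figure D2:**
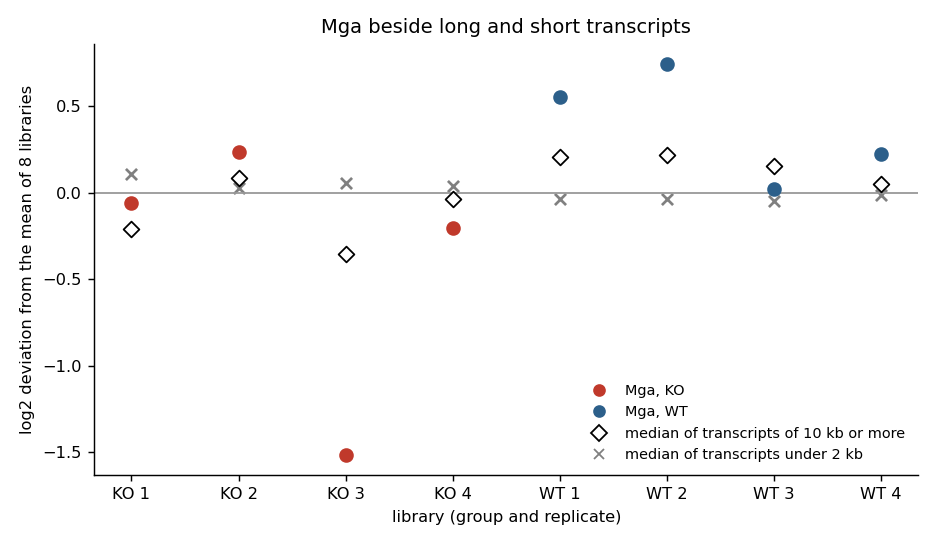
Log2 deviation of each library (x axis) from the mean of the 8 libraries (y axis) for Mga (red in KO, blue in WT), for the median of the 230 transcripts of 10 kb or more (open diamonds) and for the median of the 3949 transcripts under 2 kb (crosses). Long transcripts lay above 0 in all 4 WT libraries and below 0 in KO replicates 1, 3 and 4, and Mga in KO replicate 3 (-1.52) was below the long transcript median of that library (-0.36).

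Whether the effect differed between clones was asked with an interaction term. No member passed an unadjusted p of 0.05 (all with adjusted p = 0.9999 in limma), beside 2.59% of all transcripts. Clone 1 held a single KO library, and the interaction rests on it. Within clone E3 alone the log2 fold change was 0.30 for Myc and -0.83 for Mga (limma, adjusted p = 0.9999 for both). Without KO replicate 3 the interaction passed an unadjusted p of 0.05 for Mxd3 and Mxd4, with adjusted p = 0.9997 for both in limma, beside 3.84% of all transcripts.

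**Figure D3:**
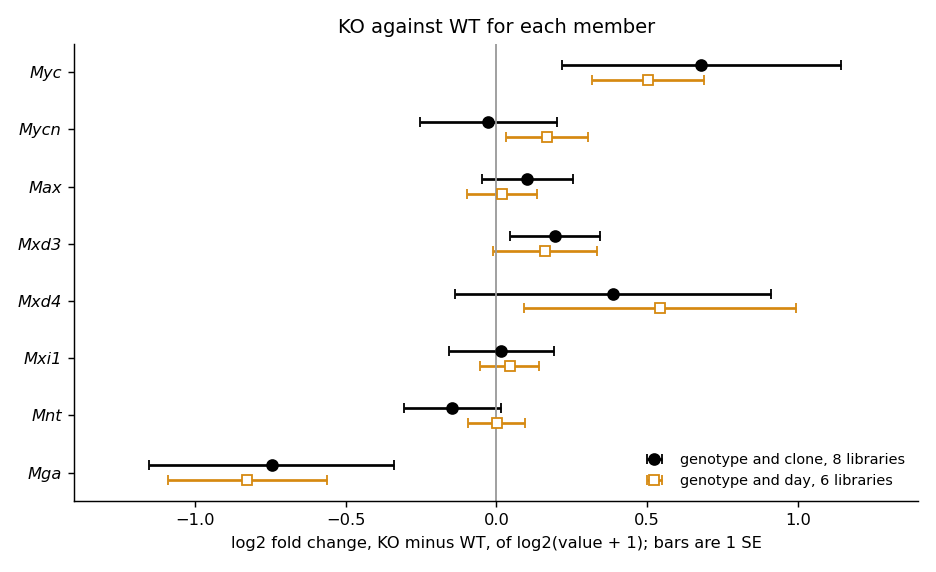
Log2 fold changes of KO against WT on log2(value + 1) (x axis) for the 8 members (y axis), from the fit with genotype and clone over 8 libraries (black circles) and from the fit with genotype and day over 6 libraries (open squares), with bars of 1 standard error. Myc lay right of 0 (0.68 and 0.50) and Mga left of 0 (-0.75 and -0.83) in both fits, and Mycn, Max, Mxi1 and Mnt lay between -0.15 and 0.17.

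Levels of the members were compared with each other per kb of annotated transcript, over all 8 libraries. The order of the levels was Mycn (844 ± 167 normalized counts per kb, SD, n = 8), Max (568 ± 66.2), Mga (354 ± 131), Mxi1 (266 ± 37.8), Myc (187 ± 83.5), Mnt (149.7 ± 18.9), Mxd3 (88.1 ± 12.1) and Mxd4 (5.81 ± 4.19). Of the 7 pairs of neighbours, 4 had the first gene higher in all 8 libraries: Mycn over Max by 1.47-fold, Max over Mga by 1.73-fold, Mnt over Mxd3 by 1.70-fold and Mxd3 over Mxd4 by 17.5-fold. All 4 had p = 0.0078 in an exact two-sided sign-flip permutation test, the smallest p that 8 libraries allow, and 0.0137 after adjustment over the 7 pairs. Libraries of the same day are not independent of each other, and with flips by day, added after the data had been seen, the 4 pairs had p = 0.0625 in the exact test, the smallest p that 5 days allow. Mga and Mxi1 (adjusted p = 0.392), Mxi1 and Myc (0.109) and Myc and Mnt (0.531) did not differ beyond their spread in the same exact test. By group means Myc stood above Mnt in KO, at 223 and 142 per kb, and below it in WT, at 150.6 and 156.8. Single libraries did not keep to this. Myc was below Mnt in KO replicate 3 (148 and 152) and above it in WT replicates 2 (271 and 171) and 4 (165 and 142). Lengths are medians over a gene's GENCODE transcripts that have a RefSeq entry. The order of the means stayed the same with the longest transcript or with levels from recovered reads. With recovered reads, however, Mycn over Max and Max over Mga held in 7 of 8 libraries (exact sign-flip test, p = 0.0156, adjusted p = 0.027 for both).

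**Figure D4:**
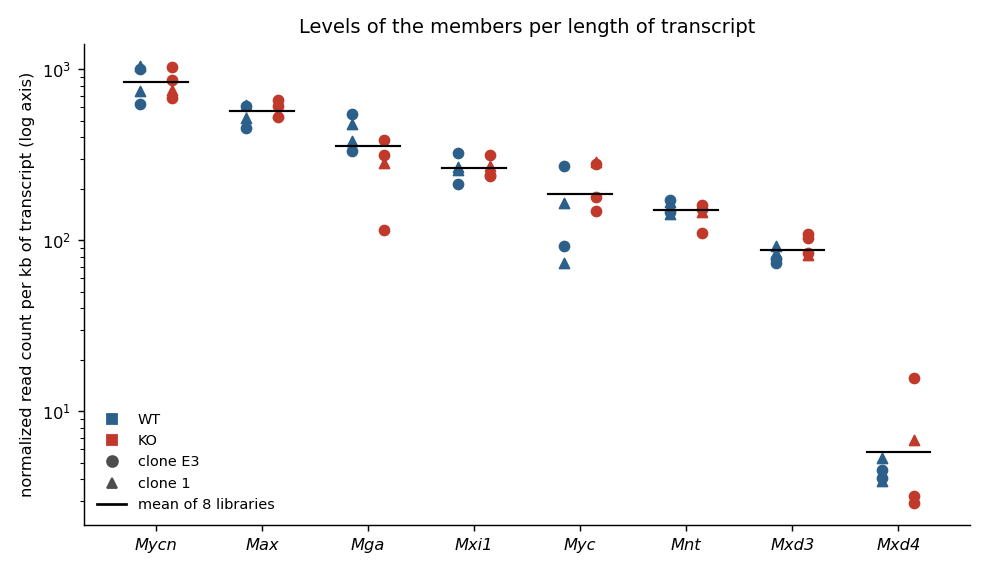
Normalized read counts per kb of transcript (y axis, log scale) of the 8 members in order of their mean (x axis), with WT in blue, KO in red, circles for clone E3, triangles for clone 1 and a black line at the mean of 8 libraries. Mycn was highest (mean 844), Mxd4 lowest (5.81), and the Myc points spanned 73.8 to 286.

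The balance within the network can be read from the same per-length levels, as a description with no test. Myc made up 21.0%, 21.2%, 14.7% and 27.5% of the summed Myc and Mycn level in the 4 KO libraries and 6.59% to 21.2% in the WT libraries, with means of 21.1% ± 5.26 and 14.7% ± 6.41 (SD, n = 4). The summed level of Myc and Mycn was 858 to 1313 per kb in KO and 722 to 1275 in WT, so both groups covered much the same range. The other partners of Max together (Mxd3, Mxd4, Mxi1, Mnt and Mga) stood at a ratio of 0.671 to 0.899 to Myc plus Mycn in KO and 0.792 to 1.23 in WT. Mga was the largest part of that sum in 7 of 8 libraries, and the ratios overlapped between the groups.

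Genes around the members were read from 8 lists of the wider network, 113 genes in all, every one present in the table. 3 of them (2.65%) had p under 0.05 in limma, 1 higher and 2 lower in KO, against 9.09% of all transcripts, and 1 (0.885%) passed the fold change criterion, against 4.25%. Their adjusted p-values all missed 0.05. With the day block the number with p under 0.05 was 15, beside 19.2% of all transcripts.

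The gene that passed the criterion was Mycl, the third Myc family activator. Its normalized counts were 166, 149, 262 and 174 in KO and 384, 253, 382 and 278 in WT. KO replicate 3 was above 1 WT library and the other KO libraries were below all of them. The log2 fold change was -0.80 ± 0.24 (SE, limma, adjusted p = 0.457). With the day block it was -0.66 and also passed the fold change criterion, as did 7.49% of all transcripts. In the fit with clone, Mycl no longer passed an unadjusted p of 0.05 without KO replicate 4 (-0.74) or WT replicate 3 (-0.66). The other network genes outside the members, Mxd1, Mlx, Mlxip and Mlxipl, had log2 fold changes between -0.24 and 0.12 and did not pass.

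Of 14 Myc cofactors 8 were higher and 6 lower in KO. Bptf, the large subunit of the NURF remodeller, had 3245 to 4501 in KO and 4512 to 5412 in WT, with no overlap (log2 fold change -0.39, limma, adjusted p = 0.518). It passed an unadjusted p of 0.05 in that fit but missed it in the day block (-0.30), with the length and GC trend removed (-0.12), and without KO replicate 1 or 3 or WT replicate 1, 2 or 3 (-0.40 to -0.32). Its transcript is 11488 bases long, and all 4 listed genes of 10000 bases or more (Bptf, Huwe1, Trrap and Ep400) had negative log2 fold changes, with a median of -0.30. Ruvbl2, an ATPase of the TIP60 and INO80 complexes, had values of 6550.2 to 8153 in KO and 6004 to 6266 in WT, also without overlap (log2 fold change 0.26, limma, adjusted p = 0.550, and 0.32 in the day block, past an unadjusted p of 0.05).

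Of 12 genes for turnover of Myc protein none had p under 0.05, beside 9.09% of all transcripts. Ppp2r5a, a regulatory subunit of the phosphatase PP2A, had 626 to 685 in KO and 425 to 602 in WT (log2 fold change 0.32, limma, adjusted p = 0.555), and Huwe1, a ubiquitin ligase with a transcript of 14579 bases, had a log2 fold change of -0.33 (adjusted p = 0.573). The 11 Sin3 and Hdac corepressor genes had a median log2 fold change of 0.0028. Sin3a, the scaffold that Mxd proteins bind, had 2657 to 3653 in KO and 3679 to 4220.5 in WT (log2 fold change -0.29, limma, adjusted p = 0.596, and -0.31 in the day block, past an unadjusted p of 0.05), and Rbbp7 had a log2 fold change of -0.17.

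The partners of Mga in PRC1.6 (13 genes) had a median log2 fold change of 0.0030. None had p under 0.05, beside 9.09% of all transcripts. In the day block 1 was higher and 1 lower with p under 0.05, beside 9.92% and 9.26% of all transcripts. Rybp had values of 2246 to 3191 in KO and 3332 to 3485 in WT, without overlap (log2 fold change -0.25, limma, adjusted p = 0.640), and Wdr5, also listed as a Myc cofactor, had a log2 fold change of 0.15. The list of germ cell genes repressed through Max and Mga (13 genes) had a median of -0.02, with 6 higher and 7 lower. None of these had p under 0.05 either, beside the same 9.09% of all transcripts. Not all of them were silent in these cells. Mean counts in KO and WT ran from 24.1 and 26.0 for Tex101 to 587 and 592 for Ddx4 and 1175 and 1069 for Stag3. Whether they depended on Max or Mga here was not tested. In the day block 3 of the 13 were lower with p under 0.05, beside 9.26% of all transcripts: Stk31 (-0.88), Tdrkh (-0.46) and Sycp1 (-0.71). There 2 of the 13 also passed the fold change criterion, beside 7.49% of all transcripts, and the median of the list was -0.46. Stk31 had 208, 186, 73.7 and 110.2 in KO and 180.1, 241, 144 and 273 in WT. Sycp3, a protein of the meiotic chromosome axis, had 109, 85.5, 55.6 and 106 in KO and 125, 103, 181 and 124 in WT (log2 fold change -0.57, limma, adjusted p = 0.589).

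Of the 8 lists the germ cell genes most often held an E-box in the promoter window, in 8 of 13 genes (61.5%) against 8.09% of all genes, and Myc activated genes had it in 11 of the 32 with a promoter (34.4%). Sites of 3 genes named here are shown to set beside those of the members, again with the E-box in capitals, at chr6:49395472-49395501 (Stk31), chr10:88459511-88459540 (Sycp3) and chr11:95666713-95666742 (Phb), all on the plus strand.
Stk31: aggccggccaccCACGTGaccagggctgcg
Sycp3: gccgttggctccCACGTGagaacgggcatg
Phb: ttgaggaataggCACGTGcatatattacca
The first base of the motif lay 64 bases before the start in Sycp3 and 232 bases before it in Phb. Stk31 has 2 annotated starts, 55 and 120 bases from this site.

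Of 40 Myc activated genes of ribosome production and growth, 23 were higher and 17 lower. Their median log2 fold change was 0.02, and none had p under 0.05, beside 9.09% of all transcripts. In the day block 5 of the 40 had p under 0.05, 2 higher and 3 lower, 1 passed the fold change criterion and the median was 0.06, beside 9.92%, 9.26% and 7.49% of all transcripts higher, lower and past the criterion. Their log2 fold changes lay between -0.40 (Ncl, which encodes nucleolin) and 0.22 (Phb, a prohibitin). In the day block Phb was at 0.26, past an unadjusted p of 0.05. There Ncl was at -0.59 and was the gene past the fold change criterion. Ncl had 13751 normalized counts in KO replicate 3, 29495 to 44226 in the other KO libraries and 27102 to 49576 in WT. Ubtf, a factor of RNA polymerase I, had 6179 to 6776 in KO and 5283 to 6172 in WT (0.18, limma, adjusted p = 0.652). All 8 Myc repressed genes listed had positive log2 fold changes, with a median of 0.44, beside 49.96% of all transcripts with positive values. Of the 8, 1 was higher with p under 0.05, beside 4.62% of all transcripts. That gene was Gadd45b, a stress response gene, with 322, 361, 357 and 428 in KO and 229.99, 310.4, 302 and 260.1 in WT, without overlap (0.40, limma, adjusted p = 0.516). It missed an unadjusted p of 0.05 in the day block (0.39), in clone E3 alone (0.18), with the length and GC trend removed (0.23), and without KO replicate 2 (0.41) or 4 (0.18) or WT replicate 1 (0.34) or 4 (0.39). Ndrg1 had a log2 fold change of 0.82 (adjusted p = 0.598). In the day block 2 of the 8 were higher with p under 0.05, beside 9.92% of all transcripts, and the list's median was 0.25. The block leaves out KO replicate 1 and WT replicate 1. WT replicate 1 was the lowest WT library for Cdkn1a, Cdkn1c, Cdkn2b, Gadd45b and Ndrg1. Cdkn1c went from 0.68 with clone to 0.16 in the block, Cdkn2b from 0.47 to 0.11 and Ndrg1 from 0.82 to 0.35. Cdkn1a and Gadd45b fell less (to 0.61 and 0.39), while Cdkn1b, Gadd45a and Ndrg2 were higher in the block (0.19, 0.32 and 0.19).

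**Figure D5:**
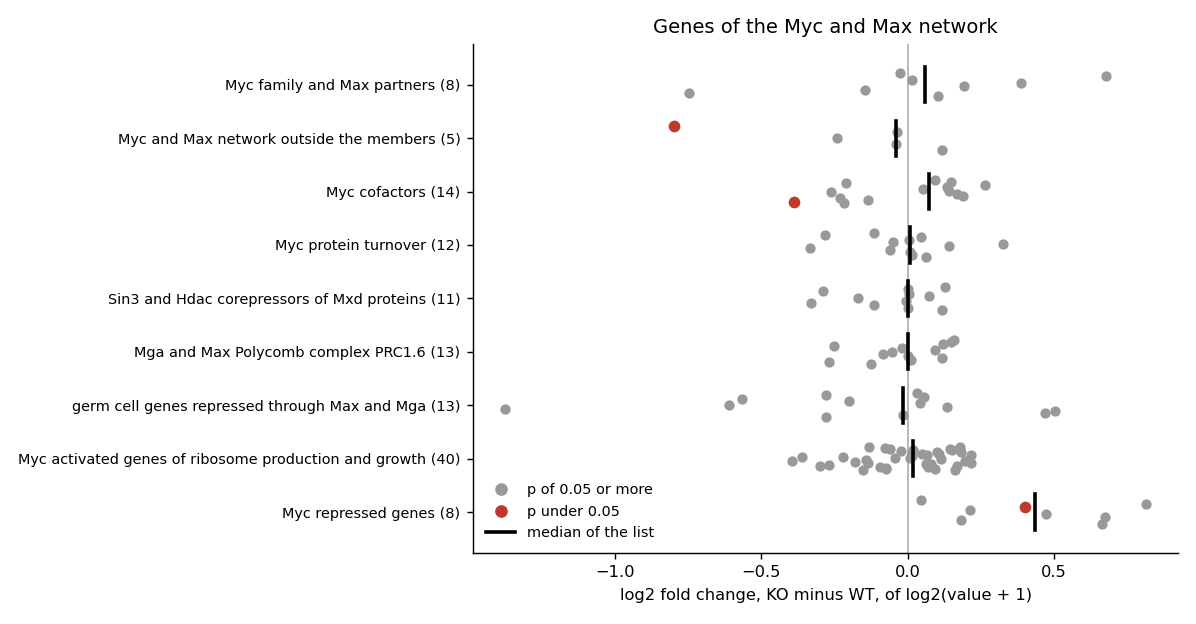
Log2 fold changes of KO against WT on log2(value + 1) (x axis) for the 8 members and the 8 network lists (y axis, number of genes in brackets), with a point per gene, red for limma p under 0.05, and a black line at each list's median. The 3 red points were Mycl (-0.80), Bptf (-0.39) and Gadd45b (0.40), list medians lay between -0.04 and 0.07 except for the Myc repressed genes (0.44), and no member was red.

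As a description of which transcripts followed the 2 activators across the 8 libraries, log2 values were correlated with those of 9937 transcripts with a mean of at least 100. The 3 most like Myc were Ovca2 (Pearson r = 0.995), Dusp5 (r = 0.985), an ERK phosphatase, and Fam179b (r = 0.971). The 3 most like Mycn were Fscn1 (r = 0.959), which encodes the actin bundling protein fascin, Sema5b (r = 0.958), a semaphorin, and Smpd4 (r = 0.955). They were the highest of 9937 values over 8 points that share library, depth and clone correction. Dusp5 had 101 to 142 in KO and 66.7 to 127 in WT, and Fscn1 had 2030.1 to 2967 and 2001 to 2983, so the groups overlapped in both as they did in Myc and Mycn.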

How the data were processed

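Total RNA of 8 mES cell samples was made into libraries with an Illumina TruSeq v2 kit, which does not keep strand, and sequenced. Per the submitters' processing notes the tools were CASAVA 1.8, Bowtie2 2.2.1, Partek 6.6 and DESeq2 with genome build mm10; per the study's methods, reads were counted per RefSeq transcript. The deposited values are a normalized signal: read counts normalized with DESeq2, corrected additively for clone by the authors, set to 1 where lower, with weakly expressed transcripts dropped. Single libraries hold the spread that this correction leaves. No per-sample column was left unused.

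The members, lists and tests were chosen with earlier results of these data known. The model, fitted in R 4.3.3 with limma 3.58.1, took log2(value + 1) and had terms for genotype and clone, with Benjamini-Hochberg adjustment over all 13558 transcripts; this scale understates changes of low transcripts. The study's criterion was kept (unadjusted p under 0.05 and at least 1.5-fold). Whole reads were recovered by undoing the clone correction, uniquely for 13420 transcripts (99.0%), and cover those alone. On simulated data all 13058 unique solutions were right, and limma called 155 of 200 transcripts changed by 4-fold plus 9 others. The simulation used the same additive correction that the recovery assumes and had no day effect. It does not show which smaller changes could be seen in these libraries. The label day pairs 3 KO with 3 WT libraries. With the correction undone, same-day deviations correlated at 0.54, 0.63 and 0.52 across transcripts, against a median of -0.18 for different days. In deposited values they correlated at 0.42, 0.54 and -0.23, against a median of 0.05 for different days. Same-day libraries also share a clone, so these correlations cannot tell a shared day from a shared clone. All members, Trim71, list genes past the criterion or else the 2 with the smallest p in a list, and 3 genes most like Myc and Mycn are named. Others named (Tdrkh, Sycp1, Ncl, Trrap, Ep400, Mxd1, Mlx, Mlxip, Mlxipl, Stag3, Ddx4, Tex101, Cdkn1a, Cdkn1b, Cdkn1c, Cdkn2b, Gadd45a, Ndrg2 and Ccnd2) were chosen after their values were seen. Gene positions are GENCODE vM21 (GRCm38) and promoters RefSeq. Lengths are those of GENCODE vM21 transcripts with a RefSeq entry, or of all transcripts of a gene where none had one. Python 3.11.15, numpy 2.4.6, pandas 2.3.3 and matplotlib 3.10.9 were used. Alternatives were other pseudocounts, filters, scalings, the clone term, voom, the day block, leaving out each library and, added after seeing the data, removal of a length and GC trend and flips by day.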

Additional observations from a re-analysis of the deposited data

How the results depend on the processing

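Over 21 alternatives (20 for Mxd4, which a mean filter removed), Myc stayed higher in KO (log2 fold change 0.30 to 1.21) and Mga lower (-1.02 to -0.31), each with p under 0.05 in 3 of them, and no other member had p under 0.05 in any. The cause of these shifts was not tested. The number of members with p under 0.05 was 0 in the reported fit, 1 with voom, 1 with the replicate block by day, 1 with the block and the length and GC trend removed, 2 with the block and voom, and 0 to 1 when each library was left out (1 without WT replicate 2). Past the fold change criterion there was 1 with voom, 1 in the block, 1 in the blocked voom fit, and 0 to 1 with libraries left out. The 1 was Myc in voom but Mga in both blocked fits. With the block and the correction undone there was none at either threshold. The block changed no call of the other 6 members. The p of the 4 pairs of neighbouring levels went from 0.0078 to 0.0625 in the exact test with flips by day. Of 113 listed network genes 3 had p under 0.05 in the reported fit, beside 9.09% of all transcripts. The number was 7 with voom (9.52% of all transcripts), 15 in the block (19.2%), 8 with the block and trend removal (16.0%) and 25 with the block and voom (23.4%). For the other settings no share of all transcripts is given here, and their counts are not read as a result about these genes. The number of listed genes was 0 in clone E3 alone, 5 with a mean of at least 50, 9 on untransformed values, 10 without the clone term, 11 in the block with the correction undone, and 1 to 4 with libraries left out. Members with an interaction numbered 0 to 2 in the same way (2 without KO replicate 3). Values near 0 changed sign. Mycn was 0.089 in clone E3, 0.17 with the block, 0.14 with the correction also undone, 0.065 with the trend also removed, 0.15 with voom in the block, and -0.24 to 0.11 with libraries left out. Max was -0.0026 and Mxd3 -0.059 with block and trend removal, and Max was -0.031 to 0.19 and Mxd4 -0.057 to 0.64 with libraries left out. Mnt was 0.00031, 0.0033 and 0.010 in the block, the block with the correction undone and the block with voom. Mxi1 was -0.0084 in clone E3, -0.016 with the trend removed, -0.022 with voom and -0.14 to 0.18 with libraries left out. Huwe1 was 0.00083 and 0.095 with the trend removed, without and with the block. Depth limits Mxd4 most.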

Other observations

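Among the genes that Myc represses in other cells, Cdkn1a, the inhibitor of cyclin-dependent kinases known as p21, had 904, 836, 1889 and 1593 normalized counts in KO and 487, 663, 1249 and 850.2 in WT. Its log2 fold change was 0.66 (limma, adjusted p = 0.645), and 0.61 with the day block, which passed an unadjusted p of 0.05. Ccnd2, a cyclin that Myc activates, was among the most variable genes of its list in WT, with 23.6, 172, 58.3 and 248 normalized counts against 70.5 to 118 in KO. The groups overlapped in both genes. Both were chosen after their values were seen.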
